A study of Mus musculus with 6 samples.

Results

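Control infarcted mouse hearts collected 3 months after coronary ligation were compared with control infarcted hearts collected 2 months after it. The comparison uses 4 of the 6 arrays of the series, the 2 titled 12W-Ctrl and the 2 titled 8W-Ctrl, and each array holds the RNA of a whole heart. All 4 hearts carried the genotype Tcf21iCre/Tomato, a Cre recombinase driven by Tcf21, a fibroblast transcription factor, together with a fluorescent reporter. The remaining 2 arrays are TTg hearts (Tcf21iCre/Tomato/MGTH2A) at 3 months after ligation, which entered only the estimate of spread. Every mouse was labelled male and was 8 weeks old when the left coronary artery was tied, so that time after infarction and age cannot be told apart. Mice whose ejection fraction exceeded 45% on echocardiography at day 2 were not kept, and RNA with an integrity number above 7.0 was required. The labels used here give no schedule for inducing the Cre, no time of day of harvest, no scan order and no uninjured heart.

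An infarct replaces dying muscle with a collagen scar that fibroblasts build and keep remodelling, while the surviving cardiomyocytes carry more load. Overloaded cardiomyocytes are known to turn on fetal and stress genes, such as skeletal actin and natriuretic peptides, and calcium entering them activates calcineurin and kinases that switch on fast-responding transcription factors. Scar fibroblasts, vessel wall cells, macrophages and lymphocytes go on changing long after the wound has closed. Whole-heart RNA mixes all of these, so a lower signal from fewer cells of a type and one from less RNA per cell cannot be told apart.

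The deposited values are log2 signals of 22206 Clariom S features, of which 19572 had 1 gene symbol, covering 19505 genes. Array medians lay between 4.93 and 5.0 and the top of the scale was 19.93, where the ventricular light chain Myl2 stood on every array. The 6 ventricular cardiomyocyte markers averaged 18.81 to 19.14 on the 4 arrays, and 5 fibroblast, 4 endothelial and 3 mural markers were all above the dim limit of 3.65, the 30th percentile of mean signal. Lung, liver, thymus and T cell marker means stayed below that limit on all 4 arrays. Each difference below is the 3-month mean minus the 2-month mean on the log2 scale, with the standard error of the limma fit (SE, n = 2 hearts a group), and p-values carry the Benjamini-Hochberg adjustment for the 22206 features.

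Each of the 4 control arrays stood apart from the others in some group of genes. The 2-month replicate 1 carried skeletal muscle and fat RNA: Myh2, a fast skeletal myosin, was at 10.51 there and at 3.34, 3.81 and 3.31 on the other 3, and the adipokine Adipoq was at 10.34 against 3.98, 4.09 and 4.83. The 3-month replicate 2 was low in atrial genes, with the atrial light chain Myl4 at 5.90 against 14.39, 15.09 and 16.08. The 3-month replicate 1 was high in fast-responding genes and in the heat shock genes Hspa1a and Hspa1b, with Hspa1a at 9.82 against 6.05, 6.32 and 6.56. Hsph1, another heat shock gene, was not set by a single array, at 9.98 and 9.68 at 2 months and at 11.38 and 11.36 at 3 months. The unfolded protein response and heat shock list had 20 of 28 members higher and 8 lower at 3 months, with a median of 0.28. The 2-month replicate 2 was the only one of the 6 arrays with signal from Y-linked genes, although all 6 mice were labelled male: Eif2s3y was at 10.86 and Uty at 10.61 there, and both lay between 2.48 and 2.91 on the other 5. On that array the X-linked Kdm6a, at 10.14 against 11.35, 11.47 and 11.68, and Kdm5c, at 7.15 against 8.58, 8.61 and 8.69, were also lowest of the controls; these X-linked genes were picked after their values were seen. Y-linked signal was thus present in the 2-month replicate 2 and in neither 3-month heart, so it was not balanced between the groups. The part of this imbalance in the other differences was not tested. Replicates lay at least 2-fold apart in 7.66% of features at 2 months and in 6.47% at 3 months. Of 787 features whose group means differed at least 2-fold, 220 (28%) were set by a single array, meaning that leaving out that array took the difference below a fraction of 0.5 of its size or turned its sign. The 2-month replicate 1 set 99 of them, the 3-month replicate 1 set 64, the 2-month replicate 2 set 39 and the 3-month replicate 2 set 18. Among all 22206 features, whatever the size of the difference, 16691 were set by a single array, and counts within lists are to be read beside that. Such genes are named as such where they occur and described by array at the end; list counts and medians include them.

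**Figure D1:**
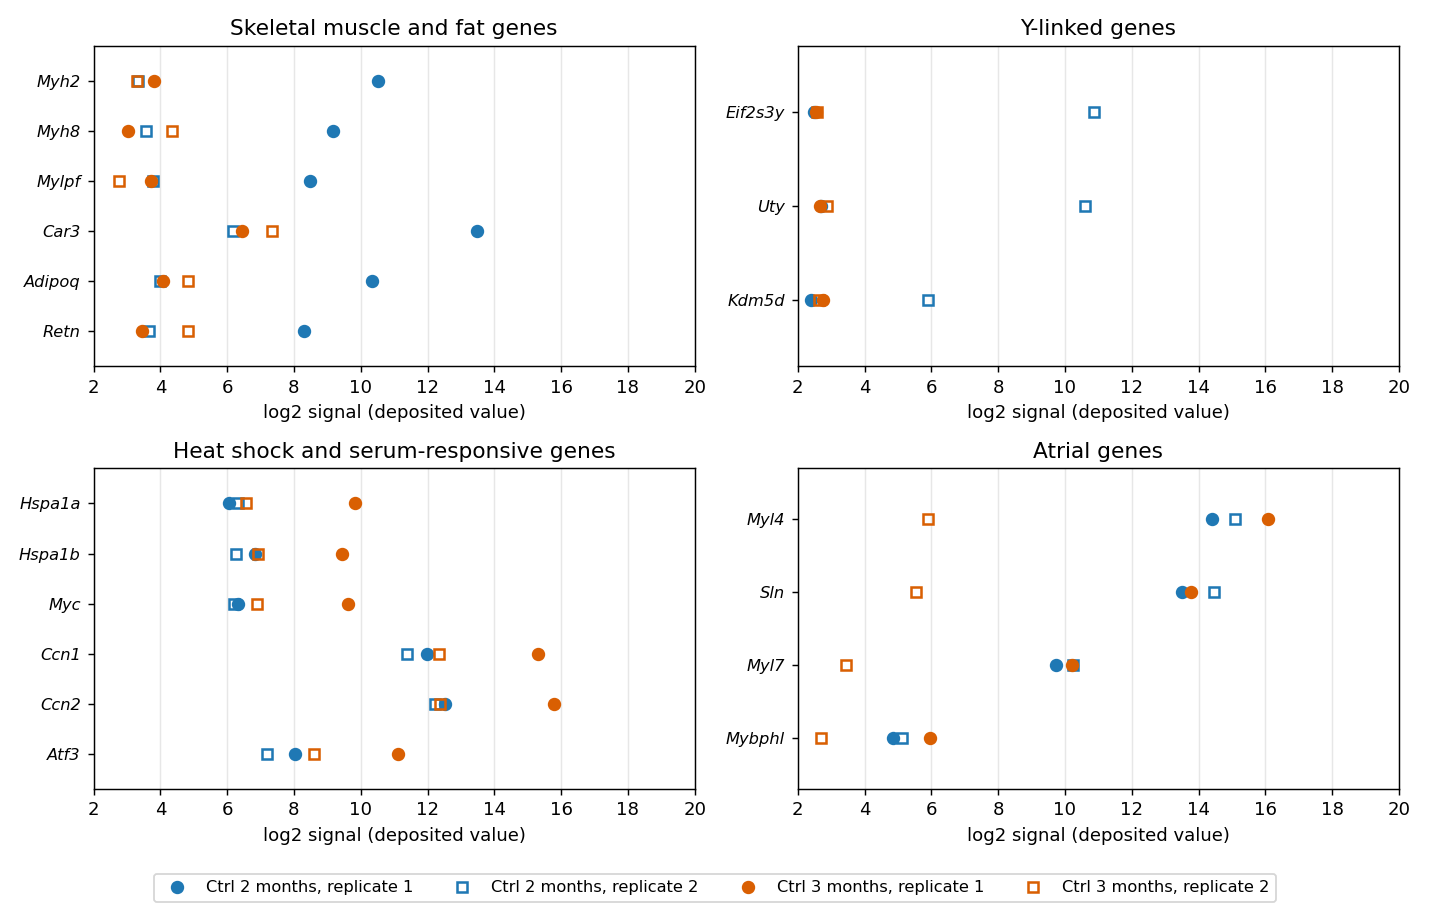
Deposited log2 signal (horizontal axis) of genes set by a single array, in 4 panels by gene group; each point is 1 of the 4 control hearts, blue at 2 months and orange at 3 months, filled for replicate 1 and open for replicate 2. In each panel a lone array sits away from the other 3: Myh2 at 10.51 on the 2-month replicate 1, Eif2s3y at 10.86 on the 2-month replicate 2, Hspa1a at 9.82 on the 3-month replicate 1 and Myl4 at 5.90 on the 3-month replicate 2.

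Across the whole array, 1 of 22206 features (0.0045%) passed an adjusted p of 0.05 in limma. At an unadjusted p under 0.05, 868 features (3.91%) had a higher mean at 3 months and 908 (4.09%) a lower one, 1776 in all where chance alone gives about 1110.3. Both 3-month arrays were above both 2-month arrays in 4053 features (18.3%) and below them in 3867 (17.4%). These shares are the background against which the counts within gene groups below are to be read. The lists were chosen with earlier results of these data known, so those counts are descriptions and not tests. Of the features at unadjusted p under 0.05, 613 also differed at least 2-fold, 299 higher and 314 lower. That count was 1301 without the 2-month replicate 2 and 1205 without the 3-month replicate 2. The smallest p that an exact permutation test of 2 against 2 arrays can give is 0.333, so no single gene can reach 0.05 by rearranging these arrays alone.

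The gene that passed was Adh1, a class I alcohol dehydrogenase that oxidises ethanol and retinol. It was at 11.48 and 11.93 at 2 months and at 8.14 on both arrays at 3 months. The groups were far apart compared with their replicates, and Adh1 fell by 3.56 (SE 0.26), 11.8-fold, with an adjusted p of 0.0457 in limma. The 2 TTg hearts at 3 months, at 8.26 and 8.53, lay close to the control hearts of that time. The adjusted p ranged from 0.0179 to 0.212 over 14 other settings, and the call was lost in 10 of them, among them leaving out any 1 of the arrays: it was 0.0621 and 0.0542 without the 2-month replicates 1 and 2, and 0.17 and 0.212 without the 3-month replicates 1 and 2. The difference itself stayed between -3.79 and -3.34. With the 2 control groups fitted alone, or without either TTg array, Adh1 had an adjusted p of 0.109 and Baiap2l1 passed in its place, with an adjusted p of 0.0474.

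**Figure D2:**
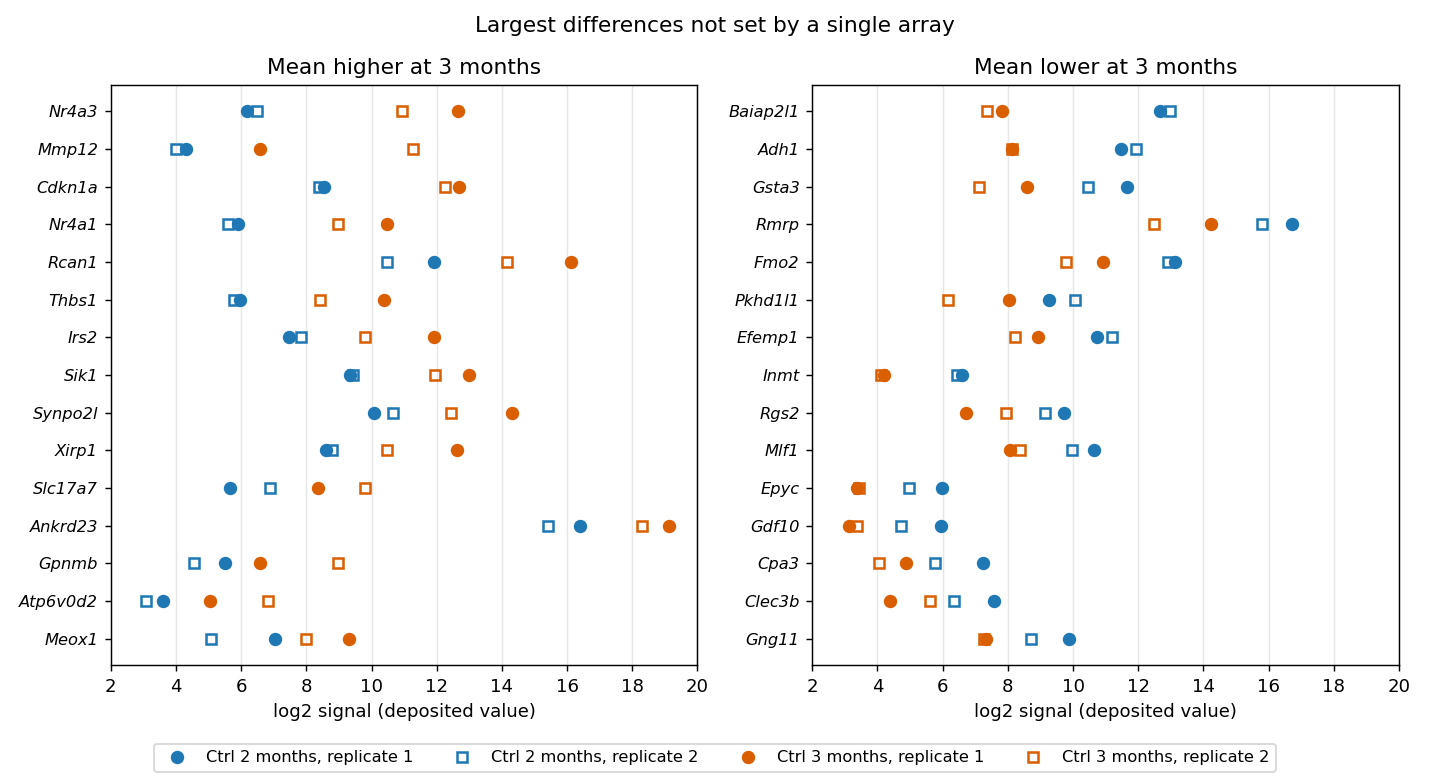
Deposited log2 signal (horizontal axis) of the 15 genes with the highest and the 15 with the lowest differences not set by a single array, left and right; each point is 1 control heart, blue at 2 months and orange at 3 months, filled for replicate 1 and open for replicate 2. No orange point of the left panel lies below a blue point of the same gene, since the genes were taken from those whose groups do not overlap; Adh1 shows 2 coinciding orange points at 8.14.

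The other 29 genes of that plot did not pass, with adjusted p-values between 0.178 and 0.547 in limma, and are given as values. The enzyme genes Inmt, Fmo2 and Gsta3 on the lower side of the plot are given next, beside relatives from their list. Inmt, a methyltransferase for indoleamines, was at 6.58 and 6.45 at 2 months and at 4.19 and 4.10 at 3 months, a difference of -2.37 (SE 0.23, adjusted p 0.178). Its replicate gaps were small beside the gap between the groups. The flavin monooxygenase Fmo2 was at 13.14 and 12.92 against 10.92 and 9.79, a difference of -2.67 (SE 0.41, adjusted p 0.374). Its relative Fmo1 was at 16.09 and 15.46 against 13.98 and 13.64, a difference of -1.97. The glutathione transferase Gsta3, which conjugates reactive compounds, was at 11.65 and 10.46 against 8.58 and 7.11, a difference of -3.21 (SE 0.56), and Gsta4 at 13.13 and 12.23 against 11.24 and 11.86. In all of these genes both 3-month hearts lay below both 2-month hearts, which the choice of Inmt, Fmo2 and Gsta3 for the plot required. In the hypoxia and oxidative stress list, which holds the Fmo and Gsta genes, 19 of 32 members had a lower and 13 a higher mean, 7 and 1 of them at unadjusted p under 0.05, and the list median was -0.14, beside 0.01 for all features. The higher member was Hif1a, the oxygen-regulated transcription factor, at 12.29 and 12.59 against 13.66 and 12.97.

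Baiap2l1, an adaptor that links membranes to actin, had the lowest difference in that plot. It was at 12.67 and 12.96 at 2 months and at 7.81 and 7.36 at 3 months, a difference of -5.23 (SE 1.33, adjusted p 0.477). The TTg hearts of the same age split, at 12.64 and 7.73, which is the spread that enters its SE. Among all 6 hearts the signal was thus either between 12.64 and 12.96 or between 7.36 and 7.81, and the level did not follow time after ligation in the TTg pair. Rmrp, the RNA component of an RNA-processing ribonuclease, was at 16.71 and 15.81 against 14.24 and 12.49, a difference of -2.89 (SE 0.69).

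Lower matrix and fibroblast-linked genes formed another part of that list. Efemp1, an extracellular glycoprotein of the fibulin family, was at 10.72 and 11.21 at 2 months and at 8.94 and 8.22 at 3 months, a difference of -2.39 (SE 0.36, adjusted p 0.374). Gdf10, a secreted member of the TGF-beta superfamily, was at 5.95 and 4.71 against 3.14 and 3.37, and both 3-month values lay under the dim limit. Epyc, a small leucine-rich proteoglycan, was at 5.98 and 4.97 against 3.36 and 3.43, and it too was dim at 3 months. Clec3b, which encodes the plasminogen-binding tetranectin, was at 7.59 and 6.36 against 4.37 and 5.60. The remaining lower genes were Pkhd1l1, Rgs2, Mlf1, Cpa3 and Gng11, with differences between -2.58 and -1.99. Of these, Rgs2 limits signalling from G protein-coupled receptors, and it was at 9.73 and 9.13 against 6.73 and 7.94.

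Stress and load genes of cardiomyocytes gave the highest list median. Of the 19 measured members of the fetal and stress list, 17 had a higher mean at 3 months, 9 of them at unadjusted p under 0.05, and 13 had both 3-month arrays above both 2-month arrays. The list median was 1.41, beside 0.01 for all features, and was 0.68 without the 2-month replicate 2 and 1.38 to 1.44 without any of the others. No member passed the adjusted threshold. Its mean signal was 13.92 and 13.36 on the 2-month arrays and 15.13 and 14.68 on the 3-month arrays, so the groups did not overlap.

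Several members of this list belong to the sarcomere edge and the intercalated disc. Nrap, an actin-anchoring protein of assembling myofibrils, was at 14.34 and 14.83 at 2 months and at 16.54 and 16.43 at 3 months, a difference of 1.90 (SE 0.26, adjusted p 0.374). The actin-binding Xin proteins of the intercalated disc behaved alike in sign: Xirp1 was at 8.61 and 8.79 against 12.62 and 10.49, a difference of 2.85 (SE 0.68), and Xirp2 at 11.48 and 11.58 against 14.29 and 13.29, a difference of 2.26 (SE 0.50). Flnc, an actin crosslinker at the Z-disc, was at 7.76 and 7.00 against 8.80 and 8.77. In each of these the lower 3-month heart lay above the higher 2-month heart by at least 1 log2 unit.

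Among the classic fetal genes Acta1, skeletal actin, was at 17.13 and 15.97 at 2 months and at 18.57 and 19.30 at 3 months, a difference of 2.39 (SE 1.13, adjusted p 0.651); the TTg hearts, which enter that error, were at 16.72 and 12.78. Myh7, the slow myosin heavy chain, was at 17.25 and 17.67 against 18.15 and 18.95, a difference of 1.09 (SE 0.57). Nppb, the B-type natriuretic peptide, was at 16.14 and 14.29 against 17.53 and 15.71, and its groups overlapped. Nppa stood at 19.86 or 19.93 on all 4 arrays, at the top of the scale, where differences cannot be read. Other load-responsive genes outside that list were also high in the ranking: Ankrd23, a titin-binding ankyrin protein, was at 16.40 and 15.42 against 19.12 and 18.29, a difference of 2.79 (SE 0.65), and Synpo2l, a cytoskeletal protein of striated muscle, was at 10.08 and 10.65 against 14.32 and 12.43. Both genes had groups that did not overlap, as their choice for that ranking required.

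Intercalated disc genes gave no common direction. Of 15, 8 had a higher and 7 a lower mean, and the median of 0.14 turned to -0.06 without the 2-month replicate 1 and to -0.16 without the 3-month replicate 2. Des, the intermediate filament desmin, was at 15.66 and 15.53 against 16.17 and 16.34, and Jup, plakoglobin, was at 13.71 and 13.58 against 14.13 and 14.37. The desmosomal cadherin Dsg2, set by the 3-month replicate 1, went the other way, with a difference of -0.78 and groups that overlapped. Tcap, which caps titin at the Z-disc, was also lower, at 15.16 and 14.98 against 13.21 and 14.23. In the ventricular identity list of 20 genes the median difference was 0.01. Some of its genes stood too near the top of the scale to be read, such as Actc1, cardiac actin, at 19.72 on every array.

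**Figure D3:**
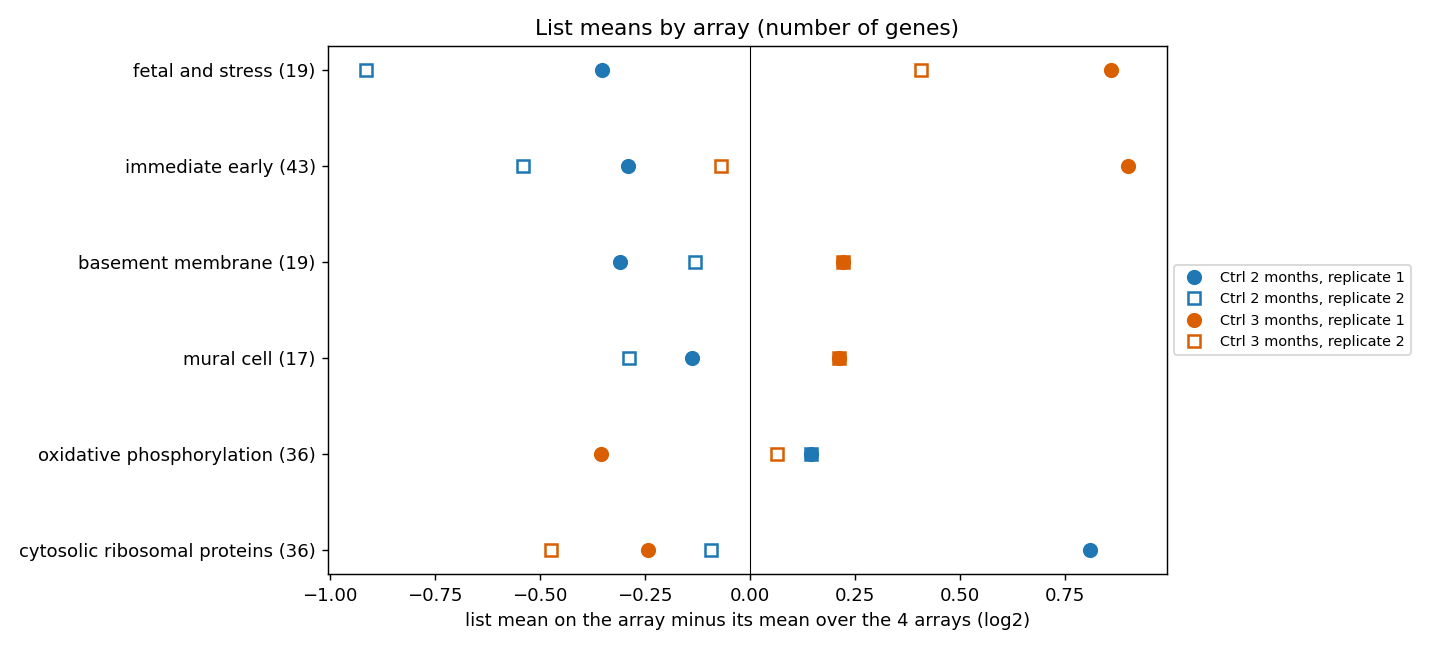
Mean log2 signal of 6 gene lists on each control array, as the deviation from the list's mean over the 4 arrays (horizontal axis, log2); blue is 2 months and orange is 3 months, filled for replicate 1 and open for replicate 2, and the number of genes stands beside each list. The fetal and stress, immediate early, basement membrane and mural cell lists have both 3-month arrays above both 2-month arrays. The oxidative phosphorylation and ribosomal protein lists have both 3-month arrays below. The ribosomal protein list is spread mainly by the 2-month replicate 1, where the list mean itself is 15.06, and the immediate early list by the 3-month replicate 1, where it is 8.05.

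Rcan1 and several immediate early genes had higher means at 3 months, by unequal amounts in the 2 hearts. Rcan1, a calcineurin inhibitor that calcineurin signalling itself induces, was at 11.92 and 10.49 at 2 months and at 16.13 and 14.15 at 3 months, a difference of 3.94 (SE 1.10, adjusted p 0.496). The TTg hearts were at 13.92 and 10.66. Nr4a1, an orphan nuclear receptor, was at 5.89 and 5.59 against 10.47 and 8.96, a difference of 3.97 (SE 0.49, adjusted p 0.357). Its relative Nr4a3 had the highest difference of the plot, at 6.18 and 6.49 against 12.66 and 10.92, or 5.46 (SE 1.52), yet the TTg hearts split widely, at 5.55 and 10.97. Sik1, a kinase that restrains cAMP-driven transcription, was at 9.35 and 9.43 against 13 and 11.96, a difference of 3.09 (SE 0.75). In all of these genes the 3-month replicate 1 was the higher of the pair, but replicate 2 was also above both 2-month hearts.

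Over the immediate early list as a whole, 37 of 43 members had a higher mean at 3 months, 12 of them at unadjusted p under 0.05, and 19 lay wholly above the 2-month arrays. None passed the adjusted threshold, and 1 member, Rgs2, was lower at unadjusted p under 0.05. The median was 0.58, and it was 0.22 without the 3-month replicate 1, since that array set 20 of the 43 members by itself. Zfp36, which destabilises cytokine mRNAs, was among those not set by it, at 6.23 and 6.64 against 8.90 and 7.69. Myc, Atf3 and Ccn1 were among those that were: Myc was at 6.32 and 6.19 against 9.61 and 6.89. Fos, a classic gene of this kind, was at 3.37 and 3.55 against 5.05 and 3.39, so the second 3-month heart lay within the range of the 2-month hearts.

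Cdkn1a, which encodes the cell cycle inhibitor p21, was at 8.54 and 8.39 at 2 months and at 12.69 and 12.25 at 3 months. The difference was 4.01 (SE 0.63, adjusted p 0.377), 16.1-fold, with the TTg hearts at 10.65 and 8.47. Irs2, an adaptor of the insulin receptor, was at 7.46 and 7.83 against 11.92 and 9.80, a difference of 3.21 (SE 0.67), and Errfi1, a feedback inhibitor of the EGF receptor, was at 9.52 and 9.20 against 11.28 and 10.61. These 3 belong to a list of glucocorticoid-responsive genes, but that list had 12 members higher and 12 lower and a median of -0.01. Cell cycle genes themselves had a median of -0.01 over 45 members, 22 higher and 23 lower; Pcna, the replication clamp, was at 12.48 and 12.58 against 12.11 and 11.77.

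Promoter windows of 4 of these genes are shown because fast transcription in response to calcium, cAMP or serum is classically routed through short promoter motifs: the serum response element and the cAMP response element. The genes were picked for display after their values were seen. Sequences are from RefSeq on GRCm38.p6, 5′ to 3′ on the gene's own strand, with the motif in capitals. The Acta1 window is chr8:123894814-123894873 on the minus strand, with its motif beginning 73 bases before the start site in the table; that of Zfp36 is chr7:28379252-28379311 on the minus strand, 58 bases before it. The Rcan1 window is chr16:92400221-92400278 on the minus strand, 175 bases before it, and that of Errfi1 is chr4:150854994-150855051 on the plus strand, 51 bases before it.
Acta1, serum response element: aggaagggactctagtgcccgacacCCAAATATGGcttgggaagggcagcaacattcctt
Zfp36, serum response element: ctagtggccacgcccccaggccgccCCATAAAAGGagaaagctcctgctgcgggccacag
Rcan1, cAMP response element: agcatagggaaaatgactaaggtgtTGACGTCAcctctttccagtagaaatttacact
Errfi1, cAMP response element: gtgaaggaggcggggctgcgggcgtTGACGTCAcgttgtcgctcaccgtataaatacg
The Acta1 and Zfp36 elements differ in their inner bases, while the Rcan1 and Errfi1 matches carry the same 8 letters. In the 250 bases before the start, a serum response element occurred in 439 of 27025 RefSeq promoters (1.62%) and the full cAMP response element TGACGTCA in 478 (1.77%); both patterns read the same on either strand. Among the 34 immediate early genes with a promoter in the table, 3 held a serum response element (8.82%): Zfp36, Srf and Dusp5. The cAMP response element was held by 4 (11.8%): Btg2, Ppp1r15a, Maff and Dusp1. Of the 4 genes shown only Zfp36 is among these, and Nr4a1, Nr4a3 and Sik1 are not. Since 34 of the 43 list members had a promoter in the table, a gene not named here may not have been searched. Of the 15 genes with the highest differences, 10 had a promoter in the table. A serum response element occurred in 0 of these 10 and the cAMP response element in 1, Rcan1. The match says only that these letters are present, and the table's start need not be the one in use in these hearts.

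Scar and matrix genes were mostly higher at 3 months but were uneven between replicates. Thbs1, thrombospondin 1, a matricellular activator of latent TGF-beta, was at 5.95 and 5.79 at 2 months and at 10.39 and 8.43 at 3 months, a difference of 3.54 (SE 0.61, adjusted p 0.396). Vcan, the large proteoglycan versican, was at 7.53 and 6.89 against 9.68 and 9.15, a difference of 2.21 (SE 0.36). Both genes had 3-month hearts that were well clear of the 2-month hearts. Col15a1, a collagen close to basement membranes, was at 5.45 and 4.57 against 6.43 and 6.98. Omd, the proteoglycan osteomodulin, went the other way, at 8.15 and 7.82 against 6.89 and 5.48. Of the 40 proteoglycan and other matrix genes 26 were higher, 6 of them at unadjusted p under 0.05, and 2 were lower at that level. The list median of 0.23 was -0.25 without the 2-month replicate 2 and -0.06 without the 3-month replicate 1, so its sign rested on those arrays.

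Fibrillar collagens and their crosslinking enzymes had a median of 0.38, with 19 of 23 genes higher, 7 at unadjusted p under 0.05 and 10 wholly above. The median stayed between 0.26 and 0.52 when any 1 array was left out. P4ha1, a prolyl hydroxylase needed for the collagen helix, was at 11.51 and 11.11 against 12.90 and 12.08, a difference of 1.18 (SE 0.33). Col5a2, a chain of the collagen that starts fibrils, was at 5.49 and 4.74 against 6.40 and 5.76. The main scar collagen gene Col1a1 was at 8.63 and 6.97 against 9.63 and 8.81, but its difference was set by the low 2-month replicate 2, and Col3a1 overlapped, at 12.86 and 10.84 against 12.47 and 11.87. Postn, a matricellular product of activated fibroblasts, also overlapped, at 12.41 and 10.47 against 13.05 and 11.47.

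The 2-month replicate 2 was low in many fibroblast genes. The 5 measured fibroblast markers averaged 13.68 and 12.20 at 2 months and 13.53 and 12.85 at 3 months, so that within each time point replicate 1 was the higher. Tcf21, whose promoter drives the Cre, was at 8.48 and 4.98 at 2 months and at 7.51 and 6.42 at 3 months, a difference of 0.24 (SE 0.997, adjusted p 0.972). The 2-month hearts lay on either side of the 3-month hearts. In the activated fibroblast list the median of 0.33 turned to -0.10 without the 2-month replicate 2 and to -0.18 without the 3-month replicate 1. Meox1, a homeobox regulator of fibroblast activation, was among its members not set by a single array, at 7.04 and 5.06 against 9.30 and 7.98, a difference of 2.59 (SE 0.89, adjusted p 0.547). Of the resting fibroblast genes 13 of 25 were higher and 12 lower, and all 5 at unadjusted p under 0.05 were lower; Dpep1, a dipeptidase, was at 10.28 and 10.57 against 9.67 and 9.21.

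Genes that cut or protect the matrix included the gene with the next highest difference of the plot after Nr4a3. Mmp12, macrophage metalloelastase, was at 4.30 and 4.01 at 2 months and at 6.59 and 11.26 at 3 months, a difference of 4.77 (SE 1.59, adjusted p 0.547). It was above the 2-month level in both 3-month hearts and far higher in replicate 2, and the TTg hearts were at 9.92 and 6.26. Gpnmb, a glycoprotein of lipid-laden and phagocytic macrophages, was at 5.51 and 4.55 against 6.57 and 8.98, and Atp6v0d2, a proton pump subunit of macrophages and osteoclasts, was at 3.60 and 3.07 against 5.04 and 6.82. These 3 genes shared the order of the hearts, with the 3-month replicate 2 highest. The 3 measured general macrophage markers did not share it: they averaged 9.12 and 8.05 at 2 months and 9.43 and 7.87 at 3 months.

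Adamts9, a protease that cleaves versican, was more even, at 5.69 and 6.03 against 8.40 and 8.34, a difference of 2.51 (SE 0.32, adjusted p 0.357). In the protease list, 22 of 30 members were higher, 6 at unadjusted p under 0.05, and 12 lay wholly above the 2-month arrays. The median was 0.37, and 0.03 without the 3-month replicate 1, on which Adamts1 was at 11.74 against 8.70, 9.17 and 8.76. Among TGF-beta pathway genes, Tgfb2, a ligand, was at 8.87 and 8.34 against 11.08 and 9.55, and Ltbp4, which holds latent TGF-beta in the matrix, was at 11.72 and 11.09 against 13.18 and 12.23. Fstl3, an extracellular activin inhibitor, was at 7.36 and 5.78 against 8.84 and 8.00. The list of 36 had a median of 0.08, with 4 members higher and 2 lower at unadjusted p under 0.05.

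The means of the basement membrane and vessel wall lists were level between the 3-month hearts, although single members were not. Col4a2 and Col4a1, the chains of the main basement membrane collagen, are encoded side by side and share a promoter region. Col4a2 was at 6.99 and 7.86 at 2 months and at 9.05 and 8.93 at 3 months, a difference of 1.57 (SE 0.32, adjusted p 0.406). Col4a1 was at 5.79 and 6.32 against 7.24 and 7.25, a difference of 1.19 (SE 0.31). In both genes the 2 hearts at 3 months were nearly level. Of 19 basement membrane genes 16 were higher, 6 at unadjusted p under 0.05, and 10 lay wholly above; the median was 0.28 and stayed between 0.18 and 0.48 with any 1 array left out. The list mean was 7.26 and 7.44 at 2 months and 7.79 on both arrays at 3 months. Perlecan (Hspg2) and the laminin chains Lama5 and Lamb2 were among the higher members, with differences of 0.97, 0.85 and 0.85.

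Mural cells are the pericytes and smooth muscle cells that wrap vessels. Their list had 12 of 17 genes higher, 4 at unadjusted p under 0.05, 10 wholly above, and a median of 0.36 that stayed between 0.22 and 0.49. The 1 gene lower at that level was Vtn, vitronectin, at 11.09 and 11.04 against 10.05 and 10.51. Myh11, smooth muscle myosin, was at 5.64 and 5.36 against 6.77 and 6.64, a difference of 1.21 (SE 0.23). Notch3, a receptor of arterial smooth muscle, was at 4.43 and 4.61 against 5.43 and 5.33, and Mcam, an adhesion molecule of the vessel wall, was at 7.72 and 7.25 against 9.60 and 8.82. The replicate gaps in these genes were smaller than the gap between the groups. Endothelial genes gave no common direction, with 13 of 33 higher, 20 lower and a median of -0.05. At unadjusted p under 0.05, 1 of them was higher and 4 were lower. Kdr, the main VEGF receptor, was at 12.41 and 12.79 against 13.81 and 14.40, a difference of 1.51 (SE 0.33), and its ligand Vegfa was at 12.05 and 12.19 against 12.67 and 13.22. Npr3, the natriuretic peptide clearance receptor, was at 10.58 and 11.09 against 9.49 and 8.59. Ramp2, Emcn and Erg of the endothelial list were also lower at unadjusted p under 0.05. Ramp2 was at 9.10 and 8.63 against 7.97 and 7.46, and Emcn at 13.80 and 13.01 against 12.89 and 11.97. Erg was at 10.21 and 9.61 against 9.45 and 8.78.

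**Figure D4:**
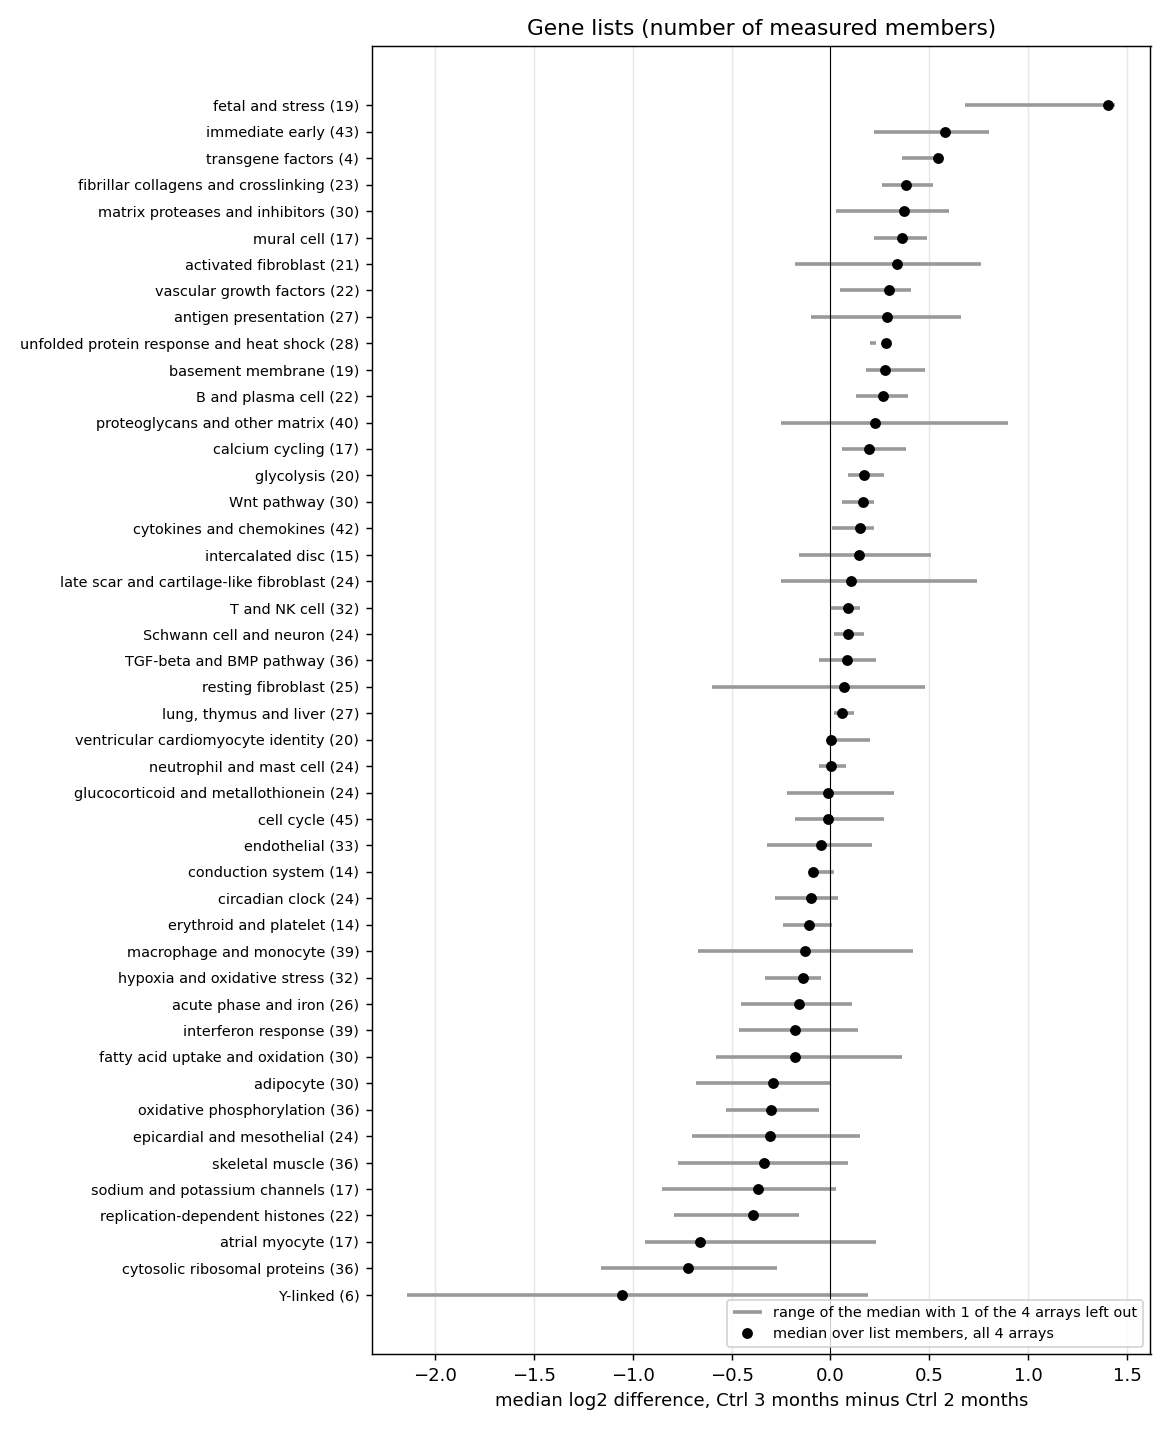
Median log2 difference, 3 months minus 2 months, over the members of each of the 46 gene lists (horizontal axis; the number of measured members stands beside each name); the black point uses all 4 control arrays and the grey bar spans the medians with 1 of the 4 arrays left out. The fetal and stress median of 1.41 lies furthest to the right, and bars that cross 0, such as those of skeletal muscle and atrial genes, mark lists whose sign depends on an array.

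B lineage genes mostly had higher means at 3 months. Jchain, which joins the chains of secreted IgA and IgM, was at 7.18 and 6.69 at 2 months and at 9.07 and 8.87 at 3 months, a difference of 2.04 (SE 0.27, adjusted p 0.357). The B cell receptor gene Cd79a was at 2.68 and 2.48 against 3.36 and 3.80, near or below the dim limit of 3.65, and Mzb1, a plasma cell chaperone, was at 3.08 and 2.94 against 3.76 and 3.74. Of 22 B lineage genes 17 were higher, 4 at unadjusted p under 0.05, and 9 lay wholly above the 2-month arrays. Il7r, a lymphocyte cytokine receptor of the T and NK cell list, was at 4.07 and 3.68 against 4.80 and 5.02. It was the only member of that list at unadjusted p under 0.05. Of the 32 members 21 were higher and 11 lower, with a median of 0.09. A single array set 25 of them, beside 16691 of all 22206 features.

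The neutrophil and mast cell list was even, with 12 of 24 members higher and 12 lower and a median of 0.00, but its 3 members at unadjusted p under 0.05 were mast cell proteases with lower means. Cpa3, the mast cell carboxypeptidase, was at 7.24 and 5.77 at 2 months and at 4.88 and 4.04 at 3 months, and the chymase Mcpt4 was at 4.54 and 4.67 against 3.44 and 3.03. The tryptase Tpsb2 was at 5.69 and 4.67 against 3.96 and 4.03. None of these had overlapping groups. Chemokine genes went both ways, with 4 of 42 higher and 4 lower at unadjusted p under 0.05; Cxcl9, an interferon-induced T cell attractant, was at 6.72 and 5.79 against 4.43 and 4.79. The interferon response list had a median of -0.18, and 0.14 without the 2-month replicate 1, so it gave no stable sign. The platelet markers Ppbp, Pf4 and Gp9 averaged 6.97 and 6.42 against 5.16 and 5.03, although Ppbp was at 3.09 and 10.70 in the TTg hearts. Other platelet genes did not share this: Treml1 was at 3.07 and 3.91 against 4.07 and 3.79, and Itga2b and Gp5 overlapped. No member of the erythroid and platelet list was at unadjusted p under 0.05.

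Several iron-handling genes had lower means at 3 months. Hamp, which encodes hepcidin, the peptide that makes cells retain iron, was at 7.86 and 8.35 at 2 months and at 6.99 and 5.29 at 3 months, a difference of -1.97 (SE 0.57, adjusted p 0.519). Its near-identical paralogue Hamp2, whose signal may be shared with that of Hamp, was at 7.46 and 7.67 against 6.38 and 5.90. Slc40a1, the iron exporter that hepcidin acts on, was at 8.77 and 8.31 against 7.19 and 7.22, a difference of -1.33 (SE 0.25), and Hfe, a regulator of hepcidin, was at 9.13 and 8.74 against 7.98 and 7.96. Tfrc, the transferrin receptor that imports iron, was higher, at 8.76 and 8.71 against 9.48 and 10.29. In the acute phase and iron list these 4 lower genes were the 4 of 26 at unadjusted p under 0.05 in that direction, and 1 member, the serum amyloid gene Saa3, was higher at that level, at 3.77 and 4.42 against 5.10 and 4.67. The list median of -0.16 turned to 0.11 without the 3-month replicate 2.

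Clock genes lay apart in both directions. Arntl, which encodes the activating clock factor BMAL1, was at 5.92 and 5.94 at 2 months and at 8.49 and 8.94 at 3 months, a difference of 2.79 (SE 1.23, adjusted p 0.635). Its partner Clock was at 12.27 and 12.12 against 13.62 and 13.93. Nr1d1, which encodes the repressor REV-ERB alpha, was also higher, at 9.78 and 10.04 against 11.09 and 12.43. The clock output gene Dbp was lower, at 17.51 and 17.61 against 16.11 and 15.87, and Hlf of the same family was at 7.16 and 6.83 against 5.48 and 4.84. In Arntl, Clock and Dbp the hearts of a time point lay within 0.5 of each other, while the TTg hearts split, with Dbp at 12.81 and 17.92. Bhlhe40, a clock repressor that stress also induces, was at 12.46 and 12.24 against 14.34 and 13.78. Of 24 clock genes 11 had a higher and 13 a lower mean, with a median of -0.10 and with 6 above and 9 below without overlap, and the part that time of day of harvest had in these values was not tested.

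Metabolic genes lay apart in both directions. Pdk4, a kinase that shuts off pyruvate oxidation, was at 10.29 and 12.23 at 2 months and at 13.15 and 13.45 at 3 months, a difference of 2.04 (SE 0.56), and Pdk1 was at 13.54 and 13.90 against 14.89 and 15.11. Ppargc1a, the coactivator of mitochondrial biogenesis, was at 14.13 and 15.08 against 15.88 and 15.77. The oxidative phosphorylation list holds subunits of the respiratory chain, and also Ppargc1a and Idh3a. Of its 36 genes 29 were lower, 9 of them at unadjusted p under 0.05, with 16 wholly below and a median of -0.30. Ppargc1a was the 1 member higher at unadjusted p under 0.05. That median was -0.06 without the 3-month replicate 1, whose list mean of 16.07 lay below 16.57, 16.57 and 16.49. Cox8b, a subunit of cytochrome oxidase, was at 15.76 and 15.52 against 14.27 and 15.01. Fabp4, a fatty acid carrier of capillary endothelium, fat and macrophages, was at 17.37 and 17.22 against 16.49 and 16.00, a difference of -1.05 (SE 0.26). Echs1, an enzyme of fatty acid oxidation, was at 15.76 and 15.41 against 14.32 and 14.88. Of the 30 fatty acid genes 10 were higher and 19 lower. At unadjusted p under 0.05, 2 were higher, Pdk4 and Angptl4, and 2 lower. The median of -0.18 turned to 0.36 without the 3-month replicate 1. Of the 20 glycolysis genes, Pdk1 among them, 14 were higher and 6 lower, with a median of 0.17.

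Among ion channel genes Kcnk3, a background potassium channel, was at 7.74 and 8.65 against 8.90 and 9.91, while Kcnj8, the pore of the vascular ATP-sensitive channel, was at 8.39 and 8.29 against 7.32 and 7.34. Of 17 sodium and potassium channel genes 5 had a higher and 12 a lower mean, with a median of -0.365. At unadjusted p under 0.05, 1 of them was higher and 2 were lower. Tbx3, a transcription factor of the conduction system, was at 4.50 and 4.15 against 5.82 and 6.15, a difference of 1.66 (SE 0.28, adjusted p 0.396). Its 2 groups stood 1.32 apart at their nearest points. Of the 14 conduction system genes 6 had a higher and 8 a lower mean, with a median of -0.09. Tbx3 was the only one of them at unadjusted p under 0.05. Stard10, a lipid transfer protein grouped here with atrial genes, was at 9.63 and 9.47 against 7.84 and 8.03, and its difference of -1.61 was not set by the array that lacked atrial signal. Gja5 of the same list went the other way, at 5.48 and 5.45 against 6.35 on both arrays, and was not set by a single array either. At unadjusted p under 0.05, 1 of the 17 atrial genes was higher and 1 lower. Jph2, which ties the sarcoplasmic reticulum to the cell membrane, was at 9.81 and 10.50 against 10.74 and 11.83, and S100a1, a calcium sensor of the same structure, was at 15.38 and 15.03 against 14.36 and 14.31. Of the 17 calcium cycling genes 13 had a higher and 4 a lower mean, 1 each way at unadjusted p under 0.05, with a median of 0.195.

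Cytosolic ribosomal protein genes were lower in 35 of 36 cases, 13 at unadjusted p under 0.05, with 23 wholly below and a median of -0.72. That median was -0.27 without the 2-month replicate 1. The list mean was 15.06 on that array and 14.16, 14.01 and 13.78 on the others, so the second 2-month heart lay close to the 3-month hearts. Rps15 depended less on that array, at 17.76 and 17.54 against 16.74 and 15.96. Replication-dependent histone genes, whose transcripts are short and lack introns, had a lower mean in 20 of 22 cases and a median of -0.39. The 2-month replicate 1 set 11 of the 22, and the median was -0.16 without it and between -0.79 and -0.26 without any of the others. The linker histone H1f2 was at 9.21 and 8.63 against 7.45 and 7.55.

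Differences followed the length of the gene on the genome. Among 5042 genes with a mean signal of 8 or more, sorted by RefSeq span on GRCm38.p6, the median difference was -0.30 in the quintile of shortest genes, -0.10, -0.03 and 0.10 in the next 3 quintiles and 0.20 in that of the longest. Without the 2-month replicate 1 it ran from -0.12 to 0.07. That array itself lay 0.33 above the gene means in the shortest quintile and at -0.20 in the longest. Of the ribosomal protein genes at that signal 34 of 35 were in the shortest quintile, of the histone genes 8 of 8, and of the oxidative phosphorylation genes 17 of 35. The part of gene length in those list values was not tested.

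**Figure D5:**
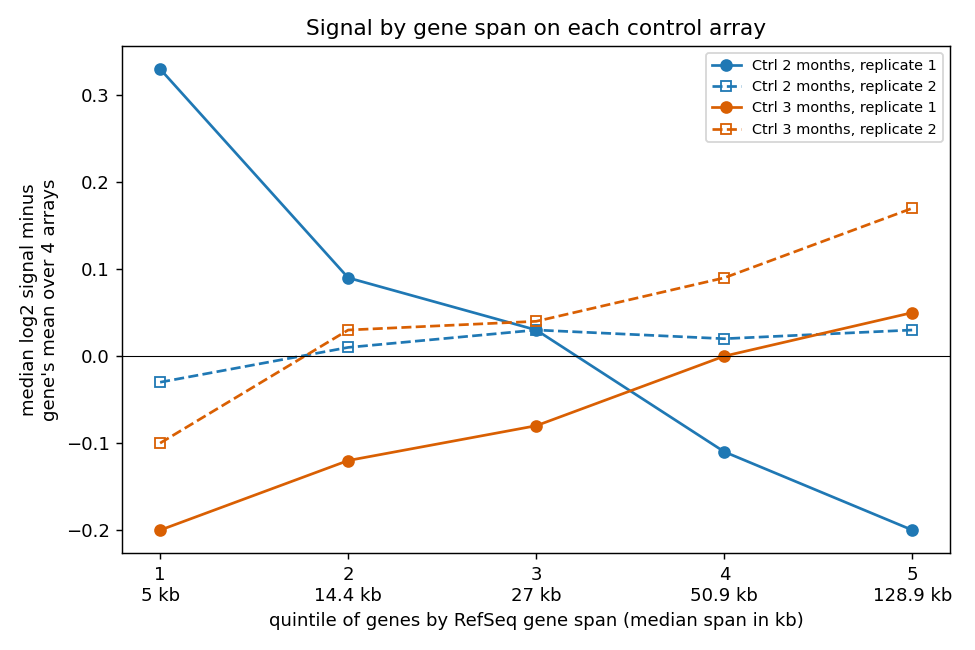
Median log2 signal minus the gene's mean over the 4 control arrays (vertical axis) in quintiles of genes by RefSeq gene span (horizontal axis, median span in kb below each), for 5042 genes; lines are control arrays, blue at 2 months and orange at 3 months, solid for replicate 1 and dashed for replicate 2. The 2-month replicate 1 declines from 0.33 to -0.20 as genes get longer, while the 3-month arrays go from -0.20 to 0.05 and from -0.10 to 0.17.

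Genes set by a single array are described here array by array; the list counts and medians above include them. On the 2-month replicate 1, 14 of 36 skeletal muscle genes and 13 of 30 fat genes stood at least 1 log2 unit above the mean of the other 3 arrays. Such counts were not confined to these tissues, since 20 of 36 ribosomal protein and 10 of 22 histone genes reached the same cut there. The share of all features at this cut was not counted on any array. The fast-muscle light chain Mylpf was at 8.47 against 3.79, 3.73 and 2.77, the neonatal myosin Myh8 at 9.18 against 3.56, 3.03 and 4.34, and Car3, an abundant carbonic anhydrase of slow muscle and fat, at 13.48 against 6.17, 6.44 and 7.35. The adipokine Retn was at 8.29 against 3.67, 3.44 and 4.83. The 9 skeletal markers averaged 7.14 there and 3.87, 3.94 and 3.88 elsewhere, and the 4 measured fat markers 7.66 against 3.64, 3.46 and 4.27. List medians of -0.34 for skeletal muscle and -0.29 for fat became 0.09 and 0.00 without this array. Ccl21a, a lymphatic chemokine, was at 15.62 there against 10.58, 11.64 and 12.40, and the Mir675 feature at 10.73 against 6.08, 5.35 and 6.37. Cyfip2 and Pttg1 were low there, at 6.80 against 11.65, 11.10 and 11.78, and at 7.38 against 10.94, 10.75 and 11.32.

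On the 2-month replicate 2, Bmp10, a right atrial growth factor, was at 6.88 against 2.40, 2.87 and 3.04, and Irx3, a conduction system factor, at 11.83 against 9.85, 8.87 and 10.01. The secreted Wnt antagonists Sfrp1 and Frzb were low there, at 7.33 against 9.76, 11.72 and 10.13, and at 7.79 against 10.16, 11.95 and 9.78. Sox9, a cartilage and scar factor, was at 6.01 against 8.13, 8.85 and 8.18. Higher 3-month means of these 3 genes therefore came with a low array at 2 months. Hsd17b7, an enzyme of sterol synthesis, was at 12.93 against 8.53, 9.49 and 9.79.

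On the 3-month replicate 1, the matricellular growth factor Ccn2 was at 15.78 against 12.53, 12.21 and 12.36, and its relative Ccn1 at 15.30 against 11.98, 11.37 and 12.35. Abra, an activator of serum response factor in muscle, was at 14.64 against 11.55, 9.97 and 11.38. Comp, a cartilage matrix protein of late scars, was at 12.02 against 9.88, 7.07 and 8.80, and the acute phase gene Serpina3n at 11.66 against 8.57, 8.54 and 7.99. In these genes the second 3-month heart lay within or next to the range of the 2-month hearts. Hopx, a cardiac homeodomain protein, was low there, at 9.50 against 11.83, 11.39 and 11.14.

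On the 3-month replicate 2, sarcolipin (Sln), an atrial regulator of the calcium pump, was at 5.53 against 13.50, 14.45 and 13.78, and the atrial light chain Myl7 at 3.45 against 9.73, 10.23 and 10.21. The 4 atrial markers averaged 4.48 there and 10.01, 11.66 and 10.74 on the others, and 7 of 17 atrial genes lay at least 1 log2 unit below the mean of the other 3. The atrial list median of -0.66 turned to 0.23 without this array. Epicardial and mesothelial genes were low on the same array, 8 of 24 by at least 1 log2 unit. Among them were Upk3b at 6.99 against 8.89, 10.18 and 8.88 and the retinal dehydrogenase Aldh1a1 at 8.28 against 11.54, 11.41 and 11.45. Without this array the epicardial and mesothelial median of -0.31 turned to 0.15. At the same cut 12 of 39 macrophage and monocyte genes and 8 of 24 late scar genes were also low there. Pde7b, a cAMP phosphodiesterase, was high there, at 14.85 against 10.24, 10.43 and 10.94. The part that these marker levels have in the other differences was not tested.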

How the data were processed

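Total RNA of whole infarcted hearts was hybridised to mouse Clariom S arrays, with 2 independent hearts in each group and an array for each, per the labels. The authors deposited 1 table of log2 signal values; the submitters' processing notes list Transcriptome Analysis Console 4.0, while the normalization is not given in the sources used here. The deposited log2 values were used as they stand. Precision is limited by the number of arrays. limma 3.58.1 in R 4.3.3 fitted all 6 arrays with 1 coefficient per group (residual df 3, prior df 4.13; checked on simulated data); p-values are two-sided, with Benjamini-Hochberg adjustment over 22206 features and a threshold of 0.05. Gene names came from GEO's platform table; 2634 features have no symbol there, and 55 symbols were repeated (the feature with the highest mean was kept). Of 1313 genes in 46 lists 1195 were measured.

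Named genes were the 15 highest and 15 lowest differences (adjusted threshold first, then unadjusted p under 0.05 with groups that do not overlap; higher group's mean not under 3.65, the 30th percentile; not set by a single array), up to 5 members of each list by size of difference plus up to 3 set by a single array, the 8 highest and 8 lowest genes of each array, and Tcf21. Other widely used list members (Fos, Nppa, Myh7, Flnc, Dbp, Col3a1, Postn) and the lone members that opposed a list's count (Vtn, Saa3) were named after their values were seen. The members and lists were chosen with earlier results of these data known. Alternatives were quantile normalization, median centring, the control groups alone, dim features left out, the replicate number as a block, an intensity trend or robust prior, each array left out, and, added after seeing the data, only features below 19 on every array.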

Additional observations from a re-analysis of the deposited data

How the results depend on the processing

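The count of genes at adjusted p under 0.05 was 1 in the fit reported and 1 with median centring, with the control groups alone, with the robust prior and over features below 19 on every array, the last added after seeing the data. It was 0 with quantile normalization, with dim features left out and with an intensity trend in the prior. With 1 array left out it ranged from 0 to 6: Eif2s3y, Uty and a feature without a symbol passed without the 2-month replicate 1, Car3, Cyp2e1, Mybpc1, Myh2, Myh1 and Adipoq without the 2-month replicate 2, and none without either 3-month replicate, where the lone array of a group is taken to vary like the others. The count at unadjusted p under 0.05 and 2-fold, 613, ranged from 606 to 1301 with 1 array left out (304 to 595 higher, 302 to 787 lower), and from 593 to 698 under the other settings. With the replicate number as a block 1 gene passed, Adh1, at an adjusted p of 0.046, and 698 stood at unadjusted p under 0.05 and 2-fold, 348 higher and 350 lower; the replicate 1 minus 2 differences correlated across features at 0.133 between the control groups, 0.136 between the 2-month and TTg groups and 0.12 between the 3-month and TTg groups. The labels state no shared litter or day, and with only 2 numbers the replicates were not taken as pairs. List medians changed sign in 7, 8, 8 and 10 of 46 lists without the 2-month replicates 1 and 2 and the 3-month replicates 1 and 2, in 2 with dim features left out, in 1 with median centring and in none with quantile normalization, the control groups alone or the block. Signals at the top of the scale and below the dim limit limit what can be read there.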
